A study of Mus musculus with 9 samples.

Results

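The 36 genes described here belong to endoplasmic reticulum (ER) stress and the integrated stress response or are among their target genes. They were followed in microglia sorted from mouse brain. They were taken by gene symbol from the 23238 symbols of the count files, all 36 were found, and 34 of them had enough counts to be tested. RNA was measured in cells sorted as CD45+CD11b+P2ry12+ on day 1 from adult female wild-type C57BL/6N mice, in 3 groups of 3 libraries, with 3 mice pooled for each library. The Normal group was left untreated. The NMO group received IgG of patients with neuromyelitis optica (an antibody against the astrocyte water channel aquaporin-4) and human complement by injection into 1 striatum. The NMO+Clodronate group received the same injection after clodronate liposomes, given intraperitoneally to deplete monocytes and macrophages of the circulation. Mice given control IgG or empty liposomes were not analysed here, so that injection, antibody and complement cannot be told apart, and neither can clodronate and liposomes.

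The ER folds proteins that are secreted or sit in membranes. When unfolded protein builds up there, the sensors IRE1 (encoded by Ern1), PERK (Eif2ak3) and ATF6 start the unfolded protein response, through spliced XBP1, phosphorylation of the initiation factor eIF2 and cleaved ATF6, and chaperone genes are transcribed. The integrated stress response is the branch that PERK shares with kinases that sense amino acid shortage, haem and viral RNA. Phosphorylated eIF2 slows general translation and lets ATF4 be translated, and ATF4 drives genes for amino acid synthesis and uptake. Much of this signalling takes place on RNA splicing, phosphorylation and translation, which counts of transcript 3′ ends do not record.

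The promoters of several chaperone genes carry a sequence named for the ER stress response, for which these genes were chosen. The shares given here are therefore a description and not independent evidence. The ER stress response element, CCAAT and CCACG separated by 9 bases, was searched on both strands in RefSeq promoter windows of GRCm38.p6, each from 250 bases before to 50 after a transcription start. It was found in 7 of the 32 member genes with a window, which is 21.9%, and in 37 of all 27025 genes with windows, which is 0.137%. All 7 are ER chaperones or folding enzymes, and they are shown with both ends of the element in capitals and 18 bases on either side, on the strand that reads CCAAT first.
Hspa5: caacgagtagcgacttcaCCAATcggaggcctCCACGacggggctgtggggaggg
Calr: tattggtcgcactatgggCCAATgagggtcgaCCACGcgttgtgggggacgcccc
Hsp90b1, farther from the start: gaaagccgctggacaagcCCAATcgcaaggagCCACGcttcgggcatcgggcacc
Hsp90b1, nearer the start: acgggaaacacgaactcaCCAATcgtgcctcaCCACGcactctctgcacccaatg
Canx: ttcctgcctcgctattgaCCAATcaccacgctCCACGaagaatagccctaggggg
Pdia6: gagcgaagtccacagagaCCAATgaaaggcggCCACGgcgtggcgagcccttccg
Dnajc3: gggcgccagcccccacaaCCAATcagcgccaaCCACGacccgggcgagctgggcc
Creld2: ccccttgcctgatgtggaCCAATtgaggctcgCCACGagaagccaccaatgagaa
The printed stretches lie at chr2:34772007-34772061 (plus strand) for Hspa5, chr8:84847057-84847111 (plus) for Calr, chr10:86705620-86705674 (minus) and chr10:86705515-86705569 (plus) for Hsp90b1 and chr11:50325782-50325836 (minus) for Canx. Those of Pdia6, Dnajc3 and Creld2 lie at chr12:17266473-17266527 (plus), chr14:118937809-118937863 (plus) and chr15:88819502-88819556 (minus). Between 46 bases (Hspa5) and 193 bases (the farther site of Hsp90b1) separated the element from the RefSeq start. At Hspa5 the GENCODE gene begins farther upstream, and the element lies within its span, whereas in the other 6 genes it lies outside.

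The site at which ATF4 and C/EBP proteins bind together was searched as TGATGCAA on both strands. It was found in 3 of the 32 members, which is 9.38%, against 1.03% of all genes with a window. These were Chac1, Slc7a11 and Herpud1, and a site each of the genes that could be tested is shown.
Slc7a11: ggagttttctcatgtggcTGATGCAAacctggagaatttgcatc
Herpud1: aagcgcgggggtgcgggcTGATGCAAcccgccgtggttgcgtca
The first lies at chr3:50443654-50443697 and the second at chr8:94386299-94386342, both on the minus strand. The unfolded protein response element TGACGTGG was found in 0 of the 32 members with a window and in 0.714% of all genes. A match of letters is a description and not a measured binding site.

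Total counts ran from 5788234 to 7837219 per library, and the ribosomal RNA entry Rn45s took between 15.98% and 30.98% of them. Neither differed detectably between groups (exact two-sided permutation tests, p = 0.2 to 0.9, where 3 against 3 libraries allow no p under 0.1). Of 10 microglia markers, 7 were lower in NMO+Clodronate than in Normal, and the summed level of the list was 34170 to 38820 CPM (counts relative to the library size) in Normal, 29410 to 34230 in NMO and 19910 to 27560 in NMO+Clodronate. Siglech was called lower in NMO against Normal, and P2ry12, Siglech, Olfml3 and Gpr34 in NMO+Clodronate against NMO. P2ry12, whose protein was used in the sort, had means of 2443, 1648 and 353 CPM in Normal, NMO and NMO+Clodronate, which is 0.145-fold of Normal and 0.214-fold of NMO in the last group (adjusted p = 4.62e-07 and 1.73e-05, edgeR). Monocyte markers summed to 25.3 to 51.5 CPM in Normal, 39.7 to 79.6 in NMO and 29.1 to 78.5 in NMO+Clodronate, with 0 of 8 called. Neutrophil markers summed to 100.7 to 579 CPM in Normal, 156 to 477 in NMO and 294 to 1346 in NMO+Clodronate, with 0 of 9 called. Plasma cells, which hold much ER, had 6 markers in the list, of which 4 were in the files. These summed to 20.6 to 28.1 CPM in Normal, 9.22 to 32.0 in NMO and 2.43 to 11.4 in NMO+Clodronate, and Mzb1 was at 0 counts in 8 of 9 libraries. Tnfrsf17 made up 68.3% of this sum and was called lower in NMO+Clodronate against Normal (19.5 to 2.16 CPM, adjusted p = 0.0315), whereas Sdc1 had means of 2.55 and 4.41 CPM there and was not called. The 9 astrocyte markers summed to 185 to 217 CPM in Normal, 111 to 138 in NMO and 102 to 134 in NMO+Clodronate, of which Slc1a3 made up 84.3%, and Slc1a3 and Slc1a2 were called lower in NMO+Clodronate against Normal. Gfap and Aldh1l1 were at 0 counts in 8 of 9 libraries each. Oligodendrocyte markers summed to 84.6 to 137 CPM in Normal, 73.05 to 100.4 in NMO and 35.8 to 68.9 in NMO+Clodronate, and Cnp was called lower in NMO+Clodronate against Normal (0.426-fold, adjusted p = 0.0258). Of the markers of lymphocytes, neurons and endothelial cells, 0 were called in any comparison. Among 12 early genes induced by tissue dissociation, Ier3 was called higher in NMO+Clodronate against NMO and Ier2 and Ier3 against Normal, and their sums overlapped (4254 to 6147 CPM in Normal, 4086 to 5611 in NMO and 4768 to 5362 in NMO+Clodronate). The part of these lists in the results was not tested. NMO replicate 2 stood apart in border macrophage markers, with a sum of 8.62 CPM beside 160 to 408 in the other libraries and no counts of Cbr2.

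The members were compared with all 12292 tested genes by the quasi-likelihood F-test of edgeR, with p values adjusted by Benjamini and Hochberg over all of them, and those under 0.05 after adjustment are named as called. In NMO against Normal, 2 members were called higher (Shmt2 and Slc7a1) and 0 lower, where 0.472% of all tested genes were called higher and 0.0244% lower. In NMO+Clodronate against NMO, 2 members were called higher (Pdia4 and Psat1) and 0 lower, where 0.529% of all genes were called higher and 1.07% lower. In NMO+Clodronate against Normal, 10 members were called higher and 0 lower, where 4.79% of all genes were called higher and 4.43% lower. The 10 were the folding genes Hspa5, Calr, Pdia4, Pdia6, Creld2 and Hyou1, the synthesis genes Psat1, Shmt2 and Mthfd2, and the transporter Slc7a1. Without NMO replicate 2, these counts of members called higher were 2, 1 and 10, with the call of Pdia4 against NMO lost. At an unadjusted p under 0.05, 9 members passed higher and 0 lower in NMO against Normal (6.05% and 3.46% of all genes), 8 and 1 in NMO+Clodronate against NMO (4.92% and 7.47%), and 17 and 1 in NMO+Clodronate against Normal (11% and 11.3%), the lower one being Edem1 in both.

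For microglia the text of the study gives 1.5-fold and p under 0.05, without stating whether p was adjusted. Captions of its figures give a lower fold. Here p under 0.05 before adjustment and at least 1.5-fold took 6 members higher and 0 lower in NMO against Normal (5.2% and 2.77% of all genes), 5 and 0 in NMO+Clodronate against NMO (4.09% and 6.65%), and 12 and 1 in NMO+Clodronate against Normal (9.9% and 10.2%). The member that was lower was Edem1. Asns is among the 6 and the 12, and among the 9 and 17 above, by a fitted fold over Normal libraries that all held 0 counts and with overlapping libraries, so that its size cannot be read. No overlap between the groups was found for 10 members higher and 0 lower in NMO against Normal (9.21% and 8.2% of all genes), 8 and 0 in NMO+Clodronate against NMO (7.89% and 9.22%), and 20 and 1 in NMO+Clodronate against Normal (13.8% and 14.9%). The median log2 fold change of the 34 tested members was 0.27, 0.26 and 0.55 in the 3 comparisons, in the same order, beside medians between -0.012 and -0.005 over all tested genes. A fold above 1 was found in 24, 23 and 29 of the 34 members, and in 49.3%, 49.7% and 49.4% of all genes. Each pair of these comparisons shares a group, so that their values are given side by side and were not tested against each other. In bulk RNA, a change in the mix of sorted cells and a change of RNA within each cell cannot be told apart.

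**Figure D1:**
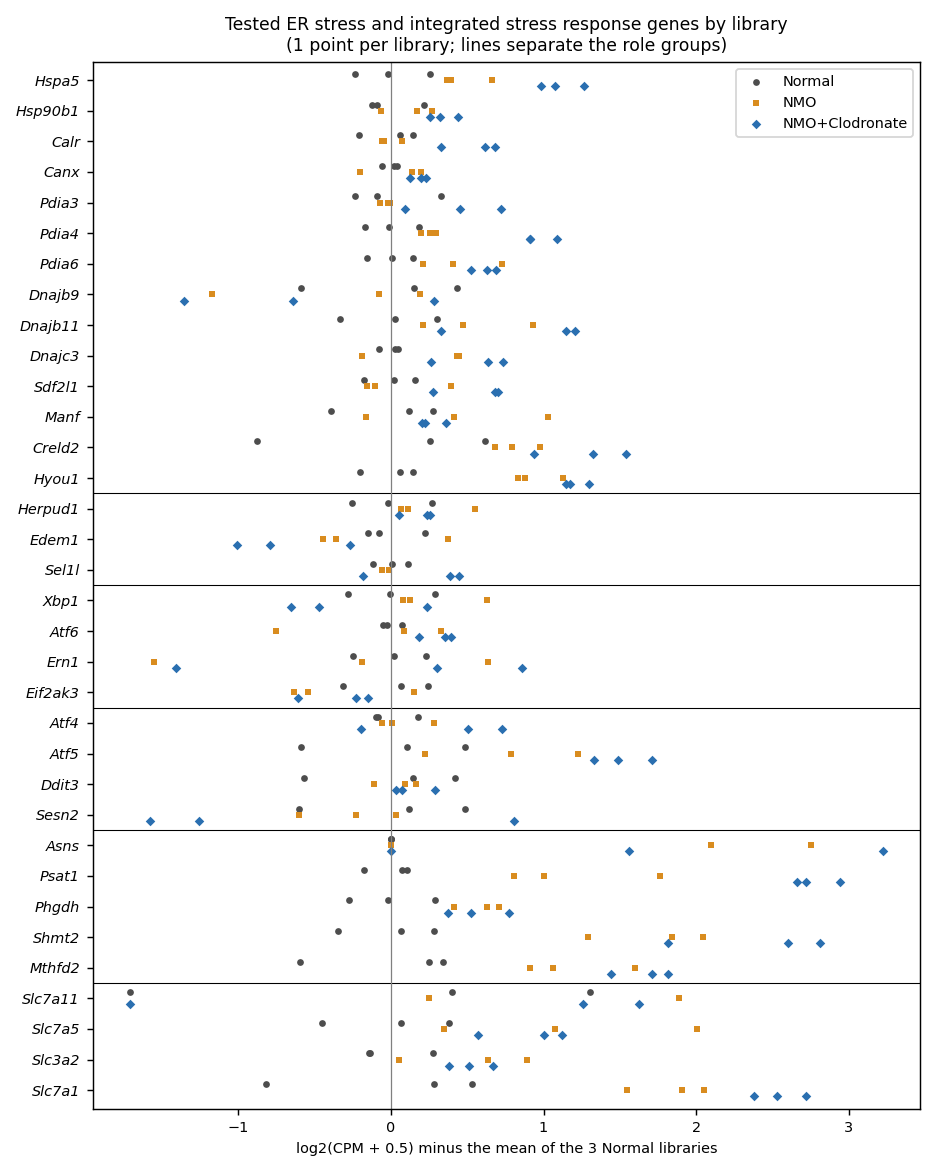
Level of each of the 34 tested genes in each library, as log2(CPM + 0.5) minus the mean of the Normal libraries (x axis), with 1 point per library, circles for Normal, squares for NMO and diamonds for NMO+Clodronate. In the upper block of chaperones and the block of synthesis genes most diamonds lie to the right of 0, whereas in the blocks of degradation genes and sensors the points lie on both sides of 0, with the diamonds of Edem1 to the left of the circles and those of Atf6 to the right.

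The ER chaperones and folding enzymes were the largest group, with 14 genes, all tested. Of these, 6 were called higher in NMO+Clodronate against Normal, 1 in NMO+Clodronate against NMO and 0 in NMO against Normal, and 0 were called lower. Among all tested genes, 4.79%, 0.529% and 0.472% were called higher in these comparisons, and 4.43%, 1.07% and 0.0244% lower. The summed level of the 14 genes was 5547 to 5866 CPM in the Normal libraries, 6307 to 6975 in NMO and 8240 to 9276 in NMO+Clodronate, so that the 3 groups did not overlap, and Hspa5 made up 28.8% of the sum over all libraries. Their median log2 fold change was 0.25 in NMO against Normal, 0.34 in NMO+Clodronate against NMO and 0.56 in NMO+Clodronate against Normal. The summed plasma cell markers, led by Tnfrsf17, were lower in NMO+Clodronate than in Normal and overlapped NMO, and the neutrophil markers overlapped between the groups. The part of either in the difference was not tested.

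Hspa5 encodes BiP, the chief ER chaperone, which holds the stress sensors inactive until it is drawn to unfolded protein (chromosome 2, 34771970 to 34777547, plus strand, GENCODE M21 on GRCm38, as for all gene positions here). Its CPM was 1127, 1314 and 1584 in the Normal libraries, 2104, 1718 and 1743 in NMO, and 2633, 2795 and 3198 in NMO+Clodronate. All NMO libraries were above all Normal libraries, and all NMO+Clodronate libraries were above both. Against Normal, Hspa5 rose 2.14-fold in NMO+Clodronate (log2 fold change 1.10, standard error 0.17, adjusted p = 0.000427, edgeR), a call that stood in all 17 alternative analyses. NMO against Normal gave a log2 fold change of 0.47 (adjusted p = 0.311), and NMO+Clodronate against NMO gave 0.63 (adjusted p = 0.0675). The latter was called with DESeq2 (0.00199), limma-voom (0.0143) and no filter on low counts (0.031).

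Hyou1, an ER chaperone of the HSP70 family that serves BiP by exchanging its nucleotide, stood at 40.3, 33.6 and 42.7 CPM in Normal, 71.5, 85.2 and 69.3 in NMO, and 86.2, 88.0 and 95.8 in NMO+Clodronate. The 3 groups did not overlap. It rose 2.32-fold in NMO+Clodronate against Normal (log2 fold change 1.21, standard error 0.23, adjusted p = 0.00212), a call made in all 17 alternatives. In NMO against Normal it was 1.94-fold higher without passing the threshold (adjusted p = 0.0712), and it was called there with library totals alone (0.0443), with no filter (0.0353) and with DESeq2 (0.00941). Creld2, an ER protein of disulfide exchange, had 30.6, 10.5 and 23.7 CPM in Normal, 39.4, 34.6 and 32.0 in NMO, and 38.2, 58.3 and 50.3 in NMO+Clodronate. It rose 2.26-fold in NMO+Clodronate against Normal (log2 fold change 1.18, standard error 0.36, adjusted p = 0.0461). This call was lost without Normal replicate 2 (0.182), Normal replicate 3 (0.109), NMO replicate 1 (0.0613), NMO+Clodronate replicate 2 (0.172) or NMO+Clodronate replicate 3 (0.0818), and with only the compared groups in the fit (0.0638).

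The protein disulfide isomerases form and reshuffle disulfide bonds in the ER. Pdia4, on the minus strand of chromosome 6 from 47796141 to 47813430, stood at 248, 216 and 194 CPM in Normal, 268, 261 and 251 in NMO, and 412, 465 and 411 in NMO+Clodronate. The NMO+Clodronate libraries stood far above the other groups, which lay close together without overlap. Pdia4 rose 1.96-fold against Normal (log2 fold change 0.97, standard error 0.17, adjusted p = 0.00165), and this was called in all 17 alternatives. Against NMO it rose 1.65-fold (log2 fold change 0.72, standard error 0.17, adjusted p = 0.0438), which was called in 6 of 17 alternatives. Leaving out 1 library ended that call in 8 of 9 cases, with an adjusted p from 0.054 (without Normal replicate 3) to 0.225 (without NMO+Clodronate replicate 2), and the call was kept without Normal replicate 1. It was also lost with library totals alone (0.0733), with only the compared groups (0.0891) and with the replicate block (0.0579).

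Pdia6 had 261, 212 and 237 CPM in Normal, 313, 391 and 274 in NMO, and 340, 366 and 381 in NMO+Clodronate, so that both injected groups were above Normal and overlapped each other. It rose 1.53-fold in NMO+Clodronate against Normal (log2 fold change 0.61, standard error 0.19, adjusted p = 0.0461). This call was lost in 7 of the 9 fits without 1 library, with an adjusted p from 0.0618 (without NMO+Clodronate replicate 1) to 0.189 (without Normal replicate 2), and with the replicate block (0.0632), and 50 exon bases overlap Atp6v1c2 on the other strand. Pdia3, which works with calnexin and calreticulin on glycoproteins, had means of 363, 350 and 487 CPM in Normal, NMO and NMO+Clodronate, and its NMO+Clodronate against Normal log2 fold change of 0.43 was not called (adjusted p = 0.217).

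Calnexin and calreticulin are lectin chaperones that bind the sugars of new glycoproteins and also calcium. Calr, on the minus strand of chromosome 8 from 84841850 to 84846934, stood at 1160, 1229 and 963 CPM in Normal, 1070, 1170 and 1076 in NMO, and 1396, 1781 and 1702 in NMO+Clodronate. Normal and NMO overlapped, and each NMO+Clodronate library was above all of them. Calr rose 1.46-fold in NMO+Clodronate against Normal (log2 fold change 0.54, standard error 0.16, adjusted p = 0.0424), and it was 1.47-fold above NMO without a call (adjusted p = 0.106), which DESeq2 (0.00374) and limma-voom (0.0437) did call. The call against Normal was lost in 6 of the 9 fits without 1 library, with an adjusted p from 0.0695 (without NMO replicate 1) to 0.188 (without Normal replicate 3), and also with no filter (0.0508) and with only the compared groups in the fit (0.06). Canx had means of 681, 708 and 774 CPM in Normal, NMO and NMO+Clodronate and was not called in any comparison.

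Hsp90b1 encodes GRP94, the ER member of the HSP90 family. It had 1143, 1114 and 1411 CPM in Normal, 1468, 1165 and 1368 in NMO, and 1651, 1523 and 1455 in NMO+Clodronate. The NMO+Clodronate libraries were above the Normal ones, but the log2 fold change of 0.34 (standard error 0.16) was not called (adjusted p = 0.227), and 415 exon bases are shared with a pseudogene on the other strand. Of the HSP40 co-chaperones, Dnajb11 and Dnajc3 had log2 fold changes of 0.93 and 0.56 in NMO+Clodronate against Normal (adjusted p = 0.0704 and 0.107), both without overlap between the groups. Dnajb11 was called without NMO+Clodronate replicate 3 (0.0231), with no filter (0.0355) and with DESeq2 (0.0449), and Dnajc3 with DESeq2 (0.0434). Dnajb9 had -0.48 in the same comparison (adjusted p = 0.641), with overlap, and part of its transcript resembles the gene Gm6568. Sdf2l1, a partner of the co-chaperones, had 0.56 (adjusted p = 0.16). Manf, a secreted ER stress protein, had its highest mean in NMO, with 126, 176 and 148 CPM in Normal, NMO and NMO+Clodronate, and was not called.

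**Figure D2:**
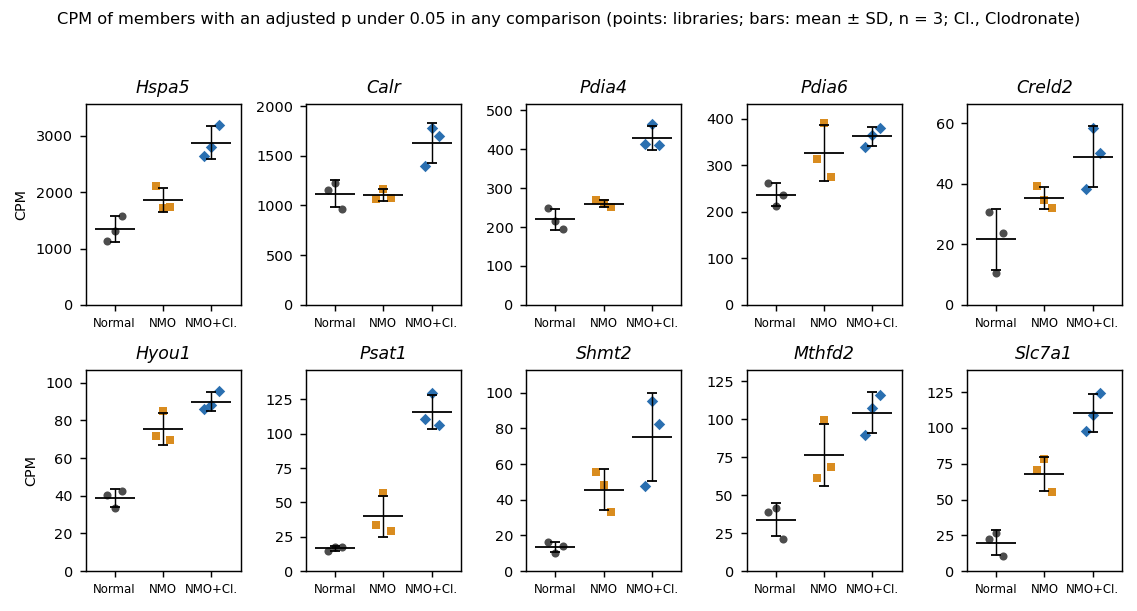
CPM (y axis, linear from 0) of the 10 genes called in any comparison, with 1 point per library and bars for the mean ± SD of 3 libraries. In Psat1, Slc7a1, Hyou1 and Hspa5 the 3 groups are separate and step up from Normal to NMO to NMO+Clodronate, whereas in Calr the Normal and NMO points overlap.

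The 7 folding genes with an ER stress response element in the window included 4 of the called ones (Hspa5, Calr, Pdia6 and Creld2) and 3 that were not called (Hsp90b1, Canx and Dnajc3). Of the 23 tested members that have a window without the element, 5 were called in NMO+Clodronate against Normal. In this comparison 4.79% of all tested genes were called higher and 4.43% lower. The median log2 fold change in that comparison was 0.56 with the element and 0.51 without. These values are a description, with no test. Slc7a11 and Herpud1, with the composite site, were not called.

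ER-associated degradation returns misfolded proteins to the cytosol for the proteasome, and its 3 members were not called in any comparison. Herpud1, a classical stress-induced part of this machinery, had 147, 121 and 102 CPM in Normal, 132, 179 and 128 in NMO, and 144, 127 and 146 in NMO+Clodronate, all overlapping (log2 fold change 0.17 in NMO+Clodronate against Normal, adjusted p = 0.74). Edem1, which picks out glycoproteins for degradation, pointed down. It had 170, 137 and 131 CPM in Normal, 113, 188 and 107 in NMO, and 120, 83.6 and 71.9 in NMO+Clodronate, with no overlap between the last group and Normal. Its log2 fold change there was -0.67 (standard error 0.26, adjusted p = 0.119), and without NMO+Clodronate replicate 1 it was called lower (-0.91, adjusted p = 0.0474). Sel1l, the scaffold of the degradation complex, had means of 184, 180 and 217 CPM in Normal, NMO and NMO+Clodronate.

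The stress sensors and Xbp1 showed no called change in any comparison, and their summed level was 195 to 222 CPM in Normal, 174 to 260 in NMO and 177 to 243 in NMO+Clodronate. Xbp1, the transcription factor whose RNA is spliced by IRE1, had 128, 86.2 and 105 CPM in Normal, 115, 162 and 111 in NMO, and 124, 75.7 and 66.6 in NMO+Clodronate. Its log2 fold changes were 0.28 in NMO against Normal, -0.54 in NMO+Clodronate against NMO and -0.26 in NMO+Clodronate against Normal (adjusted p = 0.857, 0.406 and 0.658). The groups overlapped in all of them, and spliced and unspliced Xbp1 share the 3′ end that was counted.

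Atf6 had 66.3, 67.6 and 72.2 CPM in Normal, 86.1, 72.9 and 40.5 in NMO, and 90.5, 88.0 and 78.0 in NMO+Clodronate. The last group lay above Normal, with a log2 fold change of 0.32 that was not called (adjusted p = 0.565). Eif2ak3 had 26.0, 38.5 and 34.0 CPM in Normal, 36.1, 20.7 and 22.1 in NMO, and 27.6, 21.1 and 29.1 in NMO+Clodronate, with -0.34 in NMO+Clodronate against Normal (adjusted p = 0.651). Ern1 was measured at 3 to 33 counts per library, with 1.91, 2.41 and 2.86 CPM in Normal, 2.01, 3.95 and 0.480 in NMO, and 0.584, 4.70 and 3.04 in NMO+Clodronate. A standard error of 1.39 went with its log2 fold change of 0.21 in NMO+Clodronate against Normal, and no difference of Ern1 was detectable at this depth.

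The transcription factors and regulators of the integrated stress response had no called gene either, and 4 of the 6 were tested. Atf4 had 252, 305 and 254 CPM in Normal, 327, 271 and 258 in NMO, and 235, 382 and 446 in NMO+Clodronate. In the NMO+Clodronate group 2 libraries were above all others and 1 was the lowest of all, and the log2 fold change against Normal was 0.39 (standard error 0.22, adjusted p = 0.323). Atf5, a relative of ATF4 that is translated under the same control, had 4.46, 3.31 and 1.85 CPM in Normal, 3.65, 7.78 and 5.60 in NMO, and 11.1, 8.42 and 9.45 in NMO+Clodronate. The last group was above all other libraries, 3.00-fold over Normal, at 11 to 76 counts per library (log2 fold change 1.58, standard error 0.74, adjusted p = 0.213). Atf5 shares 82 exon bases with Nup62 and Il4i1 on the other strand.

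Ddit3 encodes CHOP, the factor tied to cell death under lasting stress. It had 96.3, 79.3 and 48.3 CPM in Normal, 80.3, 76.5 and 66.3 in NMO, and 73.5, 75.3 and 87.6 in NMO+Clodronate. The groups lay within the spread of Normal, and the log2 fold change was -0.01 in NMO against Normal, 0.08 in NMO+Clodronate against NMO and 0.08 in NMO+Clodronate against Normal (adjusted p = 0.998, 0.954 and 0.922). The standard error was 0.25 in each, and 68 exon bases overlap Mars on the other strand. Trib3, an inhibitor induced by CHOP and ATF4, had 0, 6 and 0 counts in Normal, 0, 0 and 0 in NMO, and 7, 19 and 0 in NMO+Clodronate, and was not tested. Chac1, which breaks down glutathione, had 3 counts in NMO+Clodronate replicate 2 and 0 in the other 8 libraries, and a count of 0 allows up to 3. Sesn2, a stress-induced inhibitor of growth signalling, had 3 to 29 counts per library and overlapped between groups.

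**Figure D3:**
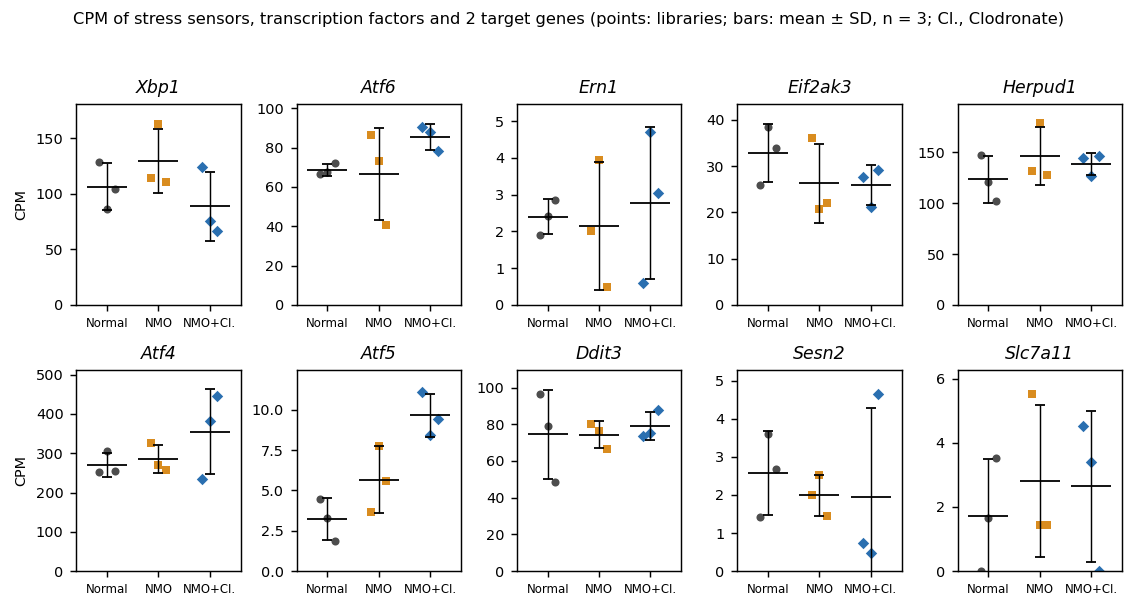
CPM (y axis, linear from 0) of the 3 sensors, of Xbp1 and Herpud1, of 4 regulators of the integrated stress response and of Slc7a11, with 1 point per library and bars for the mean ± SD of 3 libraries (the lower ends of the Sesn2 bar in NMO+Clodronate and of the Slc7a11 bar in Normal lie below 0 and are cut off). The groups overlap in most panels, and in Atf5 and Atf6 all NMO+Clodronate points lie above Normal.

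Amino acid and one-carbon synthesis supplies serine, glycine, asparagine and the one-carbon units for nucleotides, and many of its genes are driven by ATF4. Of 5 tested genes, 3 were called higher in NMO+Clodronate against Normal, 1 in NMO against Normal and 1 in NMO+Clodronate against NMO. The shares of all tested genes called higher were 4.79%, 0.472% and 0.529%, in the same order. The summed level of the 5 genes was 81.6 to 106 CPM in Normal, 170 to 256 in NMO and 299 to 376 in NMO+Clodronate, with no overlap between the 3 groups. The summed microglia markers and P2ry12 were lower where these sums were higher, as given above, and their part in the difference was not tested.

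Psat1, which makes phosphoserine on the way from glycolysis to serine, had the smallest p of the members in both comparisons of NMO+Clodronate (chromosome 19, 15904678 to 15947337, minus strand). It had 14.5, 17.8 and 17.3 CPM in Normal, 33.6, 57.0 and 29.1 in NMO, and 111, 130 and 107 in NMO+Clodronate. The 3 groups were far apart, with the highest NMO library well under the lowest NMO+Clodronate one. Psat1 rose by 2.81 on the log2 scale in NMO+Clodronate against Normal (standard error 0.29, adjusted p = 1.69e-05), and each of the 17 alternatives called it. It rose 2.90-fold in NMO+Clodronate against NMO (log2 fold change 1.54, standard error 0.28, adjusted p = 0.00839), which 15 of 17 alternatives called and which was lost without NMO replicate 1 (0.0523) or NMO+Clodronate replicate 2 (0.0626). In NMO against Normal it was 2.42-fold higher (log2 fold change 1.27, adjusted p = 0.0534), which was called without NMO replicate 3 (0.0258), with library totals alone (0.0377), with no filter (0.00241) and with DESeq2 (0.00634).

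Shmt2, the mitochondrial enzyme that takes a one-carbon unit from serine, had 16.1, 10.2 and 13.8 CPM in Normal, 55.7, 48.4 and 33.0 in NMO, and 47.6, 95.4 and 82.5 in NMO+Clodronate. Both injected groups lay well above Normal, and they overlapped each other. It rose 3.42-fold in NMO against Normal (log2 fold change 1.77, standard error 0.33, adjusted p = 0.018) and 5.61-fold in NMO+Clodronate against Normal (2.49, 0.33, adjusted p = 0.000154). The first call was lost without Normal replicate 1 (0.0569), Normal replicate 2 (0.122), Normal replicate 3 (0.112) or NMO replicate 1 (0.0942) and with limma-voom (0.0864), and the second was made in all 17 alternatives. Its exons share 32 bases with Ndufa4l2 on the other strand.

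Mthfd2, the mitochondrial folate enzyme of the next step, had 38.7, 41.4 and 21.4 CPM in Normal, 61.5, 99.5 and 68.4 in NMO, and 89.3, 108 and 116 in NMO+Clodronate. It rose 3.08-fold in NMO+Clodronate against Normal (log2 fold change 1.62, standard error 0.28, adjusted p = 0.00134), and each of the 17 alternatives called it. In NMO against Normal it was 2.26-fold higher in libraries that did not overlap (adjusted p = 0.0752), and it was called there with library totals alone (0.0377), with no filter (0.00224) and with DESeq2 (0.0133). Phgdh, the first enzyme of serine synthesis, had 24.2, 36.1 and 29.1 CPM in Normal, 45.8, 48.4 and 39.4 in NMO, and 50.8, 42.6 and 38.3 in NMO+Clodronate. It lay higher in both injected groups without a call (log2 fold change 0.58 and 0.56 against Normal, adjusted p = 0.535 and 0.253). Stretches of its transcript are nearly identical in 12 other genes, of which 2 are in the files, so that reads may have been counted at these too. Asns, asparagine synthetase, had 0, 0 and 0 counts in Normal, 13, 24 and 0 in NMO, and 0, 6 and 26 in NMO+Clodronate. With a library at 0 in each group the counts overlapped, and no fold is given (adjusted p = 0.489 for NMO and 0.183 for NMO+Clodronate against Normal).

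Of the 4 amino acid transporter genes, 1 was called, Slc7a1, the main carrier of arginine and lysine (chromosome 5, 148327410 to 148399904, minus strand). It had 22.6, 26.9 and 10.3 CPM in Normal, 70.7, 78.3 and 54.9 in NMO, and 98.2, 109 and 124 in NMO+Clodronate. All NMO+Clodronate libraries were above all NMO libraries, which in turn were above all Normal libraries. Slc7a1 rose 3.40-fold in NMO against Normal (log2 fold change 1.77, standard error 0.31, adjusted p = 0.011) and 5.53-fold in NMO+Clodronate against Normal (2.47, 0.31, adjusted p = 9.25e-05). The first call was lost without Normal replicate 1 (0.0559), Normal replicate 3 (0.057) or NMO replicate 1 (0.0521) and with only the compared groups in the fit (0.0507), and the second was made in all 17 alternatives. NMO+Clodronate was 1.63-fold above NMO without a call (adjusted p = 0.319). Of all tested genes, 0.472% were called higher in NMO and 4.79% in NMO+Clodronate against Normal.

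Slc3a2, the heavy chain that carries several light-chain transporters to the cell surface, had 407, 405 and 543 CPM in Normal, 695, 831 and 464 in NMO, and 712, 638 and 581 in NMO+Clodronate. It was 1.47-fold higher in NMO (adjusted p = 0.373) and 1.43-fold in NMO+Clodronate (adjusted p = 0.148) than in Normal, and neither was called. An isoform of Slc3a2 ends in a repeat that matches 690 other genes, of which 486 are in the files. Its partner Slc7a5, the light chain for leucine, had means of 3.79, 9.79 and 7.37 CPM in Normal, NMO and NMO+Clodronate, uncalled. Slc7a11, the cystine importer, had 0, 1.66 and 3.53 CPM in Normal, 5.53, 1.44 and 1.44 in NMO, and 4.52, 3.40 and 0 in NMO+Clodronate. At 0 to 44 counts per library and a standard error of 1.69 on the log2 scale, no difference of Slc7a11 was detectable at this depth.

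**Figure D4:**
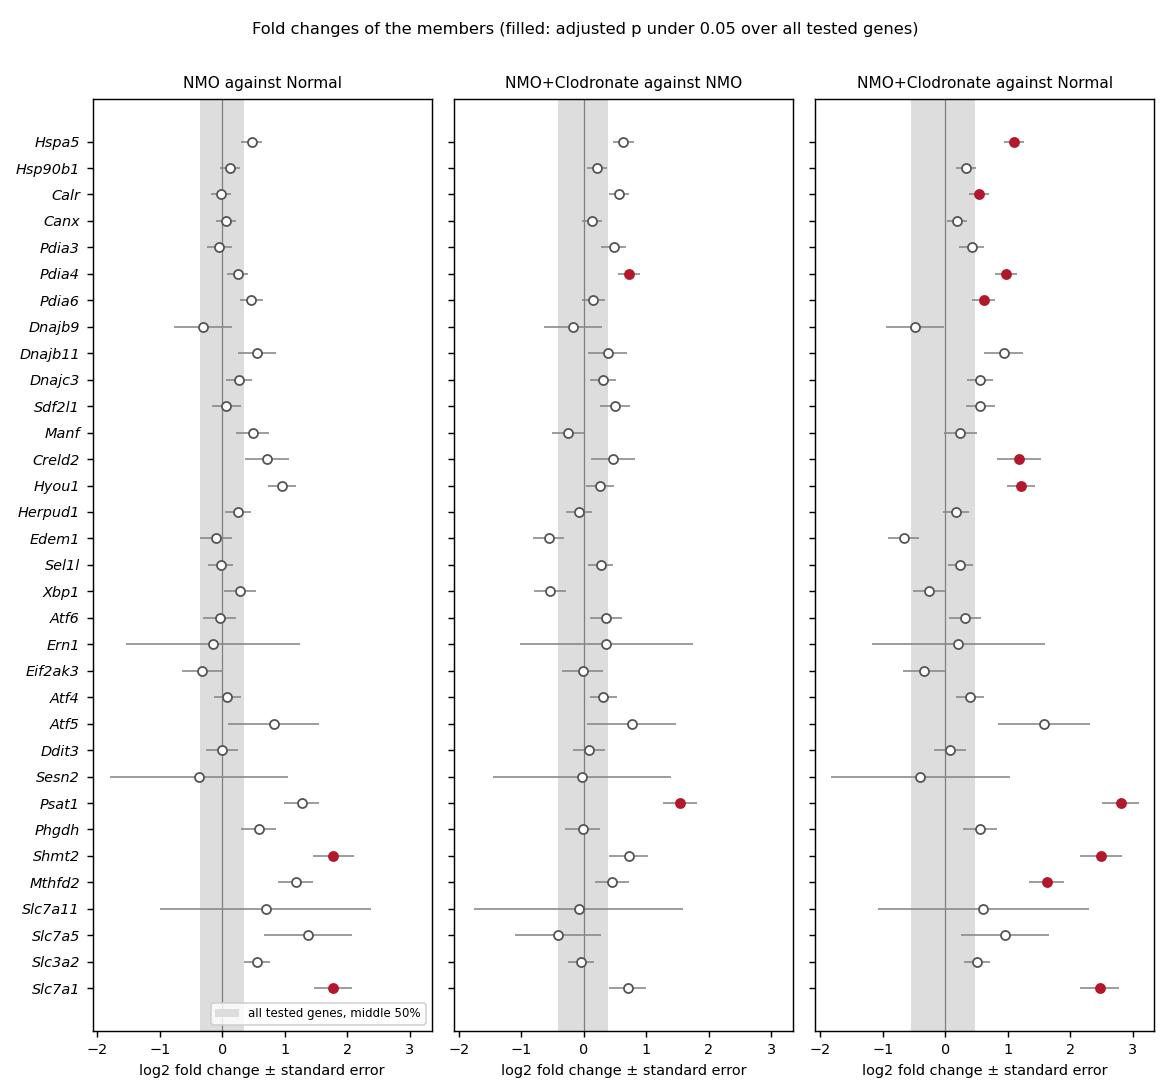
Log2 fold change ± standard error (x axis) of 33 tested genes in the 3 comparisons, filled where the adjusted p over all tested genes was under 0.05, with the middle 50% of all tested genes as a grey band (Asns, at 0 counts in all Normal libraries, is left out). In NMO+Clodronate against Normal the filled points lie at 0.54 to 2.81, and the wide bars belong to Ern1, Sesn2 and Slc7a11, which had few counts.

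**Figure D5:**
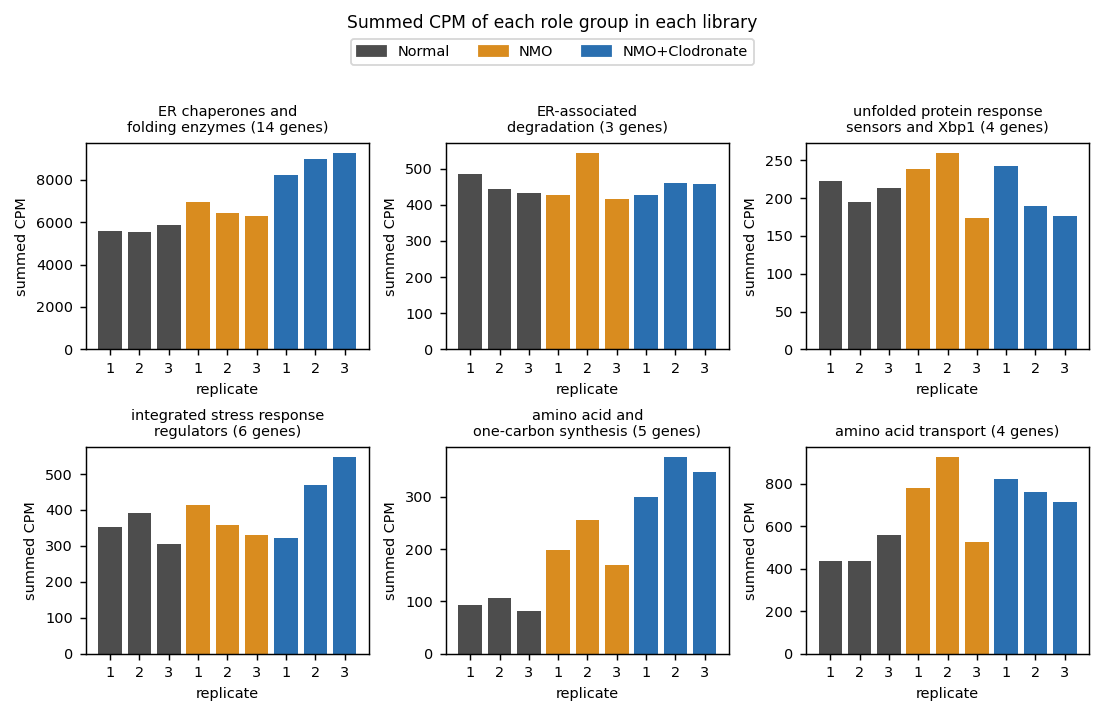
Summed CPM (y axis, from 0) of each of the 6 role groups, with 1 bar per library in the order of the replicate numbers and colours for the groups. The chaperone bars climb from 5547 to 5866 in Normal to 8240 to 9276 in NMO+Clodronate and the synthesis bars from 81.6 to 106 to 299 to 376, while those of degradation and of the sensors stay level.

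Libraries of a group did not move alike in all role groups. NMO replicate 2 held the highest sum of the NMO libraries for synthesis (256 CPM), transport (927), degradation (544) and the sensors (260), but not for the chaperones, where NMO replicate 1 stood first (6975). NMO+Clodronate replicate 3 held the highest sum of chaperones (9276) and of regulators (548) and the lowest of the sensors in its group (177). Among the 34 tested members, the highest of all 9 values was in NMO+Clodronate replicate 3 for 11.

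The rest of the pathway was read from 123 further genes in 6 lists, all found in the files, with 117 tested. Of these, 1 was called higher in NMO against Normal, 1 in NMO+Clodronate against NMO, and 21 higher and 2 lower in NMO+Clodronate against Normal, to be set beside the shares of all genes given above. The median log2 fold change was 0.31, 0.06 and 0.40 in the 3 comparisons. Single libraries decided many of these calls: of the 23 in the last comparison, 10 genes kept the call without Normal replicate 3, 11 without NMO+Clodronate replicate 2 and 15 without Normal replicate 2.

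The aminoacyl-tRNA synthetases, which charge tRNAs with amino acids and are largely ATF4 targets, had 7 of 20 genes called higher in NMO+Clodronate against Normal and 0 lower (4.79% and 4.43% of all genes), with 0 called in the other comparisons. All 20 had a fold above 1 in that comparison, with a median log2 fold change of 0.73. The called ones were Vars (27.3 ± 3.96 CPM in Normal and 79.5 ± 23.9 in NMO+Clodronate, mean ± SD, n = 3, log2 fold change 1.54, adjusted p = 0.00162), Farsb (1.21, 0.00283), Yars (1.18, 0.0202), Lars (1.14, 0.0186), Eprs (1.11, 0.00117), Gars (1.10, 0.00424) and Tars (0.94, 0.00836).

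Among 26 other targets and partners of ATF4, of which 20 were tested, 6 were called higher and 1 lower in NMO+Clodronate against Normal (4.79% and 4.43% of all genes). Ddit4, an inhibitor of mTORC1 induced by stress and by glucocorticoids, had 87.6, 90.4 and 53.8 CPM in Normal, 78.5, 118 and 198 in NMO, and 430, 839 and 189 in NMO+Clodronate. It rose against Normal (log2 fold change 2.65, adjusted p = 0.000746) and against NMO (1.89, 0.0258), with 1 NMO+Clodronate library inside the range of NMO. In the comparison with NMO it was the single call among the 123, and the call was lost when NMO replicate 1, NMO replicate 2 or NMO+Clodronate replicate 2 was left out. The neutral amino acid carriers Slc1a5 and Slc1a4 rose to 29.3 ± 2.85 from 2.72 ± 2.39 CPM and to 36.01 ± 9.31 from 10.8 ± 5.16 CPM (mean ± SD, n = 3, log2 fold change 3.41 and 1.73, adjusted p = 0.00511 and 0.0112). Eif4ebp1, a brake on translation initiation, rose by 1.89 (adjusted p = 0.00154), the factor Jdp2 by 2.18 (0.0251) and the mitochondrial folate enzyme Mthfd1l by 1.20 (0.0479). Cebpg, a partner that ATF4 binds DNA with, fell by 0.90 on the log2 scale (127 ± 17.0 to 68.3 ± 8.91 CPM, adjusted p = 0.0131).

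Of 21 further folding and oxidation genes, 2 were called higher in NMO+Clodronate against Normal, P4hb (log2 fold change 1.15, adjusted p = 0.00099), the most common disulfide isomerase, and Prkcsh (0.71, 0.0369), a subunit of the glucosidase that trims glycans. Of 22 genes of translocation into the ER, 3 were called higher, the channel subunit Sec61a1 (1.00, 0.027) and the translocon-associated Ssr2 (1.00, 0.0241) and Ssr4 (0.84, 0.0132). Of 16 further degradation genes, 1 was called higher and 0 lower, the higher one being H13 (Hm13), a signal peptide peptidase (0.68, 0.0268). At 1.5-fold and unadjusted p under 0.05, 1 of the 16 was higher and 3 were lower (9.9% and 10.2% of all genes). Over all tested genes, 4.79% were called higher and 4.43% lower in this comparison. Sec61a1 overlapped between groups, with 152, 278 and 243 CPM in Normal and 254, 476 and 618 in NMO+Clodronate.

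Among 18 sensors, eIF2 kinases and phosphatases beyond the members, Eif2s1 was called higher in both comparisons with Normal. This gene encodes the eIF2 subunit that is phosphorylated in the integrated stress response. It had 28.5, 17.9 and 29.3 CPM in Normal, 51.3, 63.4 and 71.7 in NMO, and 57.1, 78.7 and 62.6 in NMO+Clodronate, so that both injected groups were above Normal. The log2 fold change was 1.30 in NMO (standard error 0.28, adjusted p = 0.0451) and 1.39 in NMO+Clodronate (0.28, 0.00361). The NMO call was the single one among the 123 genes, and 0 were called in 7 of the 9 fits without 1 library, those without any 1 Normal or NMO library and without NMO+Clodronate replicate 2. Eif2b3, a subunit of the exchange factor that phosphorylated eIF2 blocks, rose by 1.43 in NMO+Clodronate against Normal (adjusted p = 0.0279). Tmbim6, an inhibitor of ER stress cell death, fell by 0.75 on the log2 scale (601 ± 72.3 to 358 ± 93.8 CPM, mean ± SD, n = 3, adjusted p = 0.0323).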

How the data were processed

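The authors prepared QuantSeq 3′ libraries, aligned the reads with Bowtie2 and counted unique and multiple alignments per gene with bedtools. The build was mm10 per the submitters' processing notes. The deposited values are raw read counts per gene symbol, whole numbers that are not normalized, with 23282 entries for 23238 symbols, and 35 symbols on several entries were summed. Strand and annotation used in counting were not given in the sources used here, so that reads of overlapping genes on opposite strands cannot be separated.

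Counts were analysed in R 4.3.3 with edgeR 4.0.16: filterByExpr (minimum count 10, minimum total 15), TMM library sizes, and the quasi-likelihood F-test (two-sided) on all 9 libraries with 1 coefficient per group, with Benjamini-Hochberg adjustment over 12292 genes. CPM values are relative to TMM-scaled library sizes. The script was tested on simulated data. Alternatives were DESeq2 1.42.0 and limma-voom (limma 3.58.1), other size factors, no filter, Rn45s left out, only the groups compared, the replicate block, and each library left out.

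The members, role groups, further lists and markers were chosen with earlier results of these data known. Values in every library are given for members called in any comparison, for the 3 members with the smallest p in each, and for chaperones, sensors, factors and targets listed by the rule. Other members are given by means, counts or fold changes, and of the further lists the called genes are named, with the list's counts. Edem1 values were added because it was the member lower at the 1.5-fold threshold. A planned search for ER retention signals in the proteins was not made. Pools are replicates of a group per the labels. Pairs of libraries of a group differed by more than counting error (chi-square per degree of freedom 21.9 to 51.1). Counting limits cover counting error only, since molecular identifiers were not used.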

Additional observations from a re-analysis of the deposited data

How the results depend on the processing

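The 17 alternatives moved the counts of calls and left most fold changes in place. The 10 members called higher in NMO+Clodronate against Normal became 7 to 10 without 1 library each, and 0 lower became 0 to 1 (Edem1). The 2 members called higher in NMO against Normal became 5 with library totals alone, no filter or DESeq2, 1 with limma-voom or only the compared groups, and 0 to 3 without 1 library each. The 2 called higher in NMO+Clodronate against NMO became 4 with DESeq2 or limma-voom, 1 with library totals alone, only the compared groups or the replicate block, and 0 to 2 without 1 library each. At the 1.5-fold threshold, the 6 members higher in NMO against Normal became 11 with library totals alone and 5 to 11 without 1 library. The 5 higher and 0 lower in NMO+Clodronate against NMO became 2 to 8 and 0 to 2 without 1 library, and the 0 lower became 2 with library totals alone and 1 with the replicate block. The 1 lower in NMO+Clodronate against Normal became 0 to 2 without 1 library.

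Over all genes, the 61 calls in NMO against Normal became 96 with library totals alone, 223 with no filter, 222 with DESeq2, 34 with only the compared groups and 20 to 75 without 1 library. The 196 in NMO+Clodronate against NMO became 496, 465 and 73 with no filter, DESeq2 and only the compared groups, and 51 to 231 without 1 library. The 1134 in NMO+Clodronate against Normal became 649 to 1263 without 1 library. Of the further pathway genes, the 1 call in NMO against Normal became 3 with library totals alone, 8 with no filter, 6 with DESeq2, 0 with limma-voom, only the compared groups or the replicate block, and 0 to 2 without 1 library. The 1 in NMO+Clodronate against NMO became 3 with no filter or DESeq2, 0 with only the compared groups and 0 to 1 without 1 library. The 23 in NMO+Clodronate against Normal became 10 to 25 without 1 library. The summed chaperones in Normal moved from a mean of 5672 to 5467 CPM with library totals alone. Library totals alone put the median of all genes in NMO against Normal at 0.097. The causes of these shifts were not tested.

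The replicate numbers are not stated to mark a shared day. The correlations between the deviations of same-numbered libraries ran from -0.0164 to 0.0302, so that the numbers were not used as pairs. With the replicate block the calls of Pdia4 in NMO+Clodronate against NMO (adjusted p = 0.0579) and of Pdia6 in NMO+Clodronate against Normal (0.0632) were lost, and no other member changed its call.

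Small log2 fold changes that were not called changed sign. With library totals alone the values were Calr 0.098, Pdia3 0.072, Edem1 0.024, Sel1l 0.072, Atf6 0.063 and Ddit3 0.125 in NMO against Normal. With no filter the values were Ddit3 0.004 in NMO against Normal. With limma-voom the values were Ddit3 0.047 in NMO against Normal, Eif2ak3 0.007 and Asns -0.337 in NMO+Clodronate against NMO and Ern1 -0.232 in NMO+Clodronate against Normal. With the replicate block the values were Ddit3 0.02 in NMO against Normal, Asns -0.817 in NMO+Clodronate against NMO and Ern1 -0.058 in NMO+Clodronate against Normal. With RLE size factors the values were Eif2ak3 0.01, Sesn2 0.015 and Phgdh 0.012 in NMO+Clodronate against NMO. With DESeq2 the values were Eif2ak3 0.01, Sesn2 0.013 and Phgdh 0.012 in NMO+Clodronate against NMO. Without 1 library each, the ranges that crossed 0 in NMO against Normal were Calr -0.13 to 0.059, Canx -0.036 to 0.163, Pdia3 -0.178 to 0.124, Sdf2l1 -0.141 to 0.145, Edem1 -0.416 to 0.028, Sel1l -0.094 to 0.011, Atf6 -0.296 to 0.197, Ern1 -0.931 to 0.298, Atf4 -0.049 to 0.176, Ddit3 -0.255 to 0.212 and Slc7a11 -0.278 to 1.718. In NMO+Clodronate against NMO they were Dnajb9 -0.733 to 0.138, Manf -0.477 to 0.111, Herpud1 -0.15 to 0.101, Ern1 -0.252 to 1.138, Eif2ak3 -0.165 to 0.297, Sesn2 -1.681 to 0.424, Asns -1.608 to 1.045, Phgdh -0.14 to 0.068, Slc7a11 -0.716 to 0.886, Slc7a5 -0.722 to 0.171 and Slc3a2 -0.233 to 0.153. In NMO+Clodronate against Normal they were Ern1 -0.4 to 0.691, Ddit3 -0.154 to 0.308, Sesn2 -2.05 to 0.056 and Slc7a11 -0.02 to 1.643.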
